A study of Homo sapiens with 10 samples.

Results

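The genes described here were 10 early response genes chosen by name: the JUN family (JUN, JUNB, JUND), the FOS family (FOS, FOSB, FOSL1, FOSL2), ATF3, EGR1 and IER2. All 10 were matched by their Ensembl IDs among the 55889 gene IDs of the series, and each had a value in every library. KOPT-K1 cells, an established line from human acute lymphoblastic leukaemia of the T lineage (T-ALL), were grown in medium with serum. They were treated for 45 min with 25 nM silvestrol, a plant compound that blocks the translation initiation helicase eIF4A, or with DMSO. Each treatment had 2 libraries of ribosome-protected fragments (footprints) and 3 libraries of total RNA, 10 libraries in 4 groups. Separate cultures are not stated for the replicates, so p-values refer to the spread among the libraries at hand and that spread may be technical.

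AP-1 is a dimer of basic leucine zipper proteins. A JUN protein pairs with itself, with a FOS protein or with an ATF protein, and the pair binds a short palindromic DNA element in promoters and enhancers. EGR1 is a zinc finger factor that binds GC-rich sites. FOS, EGR1, JUNB and IER2 are classical immediate early genes, whose transcription starts within minutes of a mitogen signal without new protein synthesis and whose mRNAs turn over quickly. In T cells AP-1 acts with NFAT downstream of the antigen receptor at cytokine genes.

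Sequence matches in these genes to some elements known for signal-driven transcription and for mRNA turnover are shown first, because the RNA values below are read gene by gene. Promoter sequences come from RefSeq (GRCh38.p14) and cover 250 bases before to 50 bases after the gene start. UTR sequences come from GENCODE release 29 (GRCh38). All are written 5′ to 3′ on the gene's strand, with the matched letters in capitals. The EGR1 promoter held 2 CArG boxes, the element bound by serum response factor, at chr5:138465364-138465393 and chr5:138465386-138465415 (plus strand). The JUND promoter held a cAMP response element, TGACGTCA, at chr19:18281803-18281832 (minus strand). The FOS 3′UTR held the AU-rich nonamer TTATTTATT at chr14:75282060-75282089, and the first ATTTA of the JUNB 3′UTR lay at chr19:12793060-12793089 (plus strand). The JUN and JUND 5′UTRs matched a pattern of 4 runs of at least 3 G with loops of 1 to 7 bases of any kind, the letters of a possible G-quadruplex, at chr1:58784298-58784327 and chr19:18281529-18281558 (minus strand). JUN held 4 separate runs, whereas JUND held 3 and matched only because its first run of 7 G was read as 2 runs with a G as the loop.
EGR1 CArG box, distal: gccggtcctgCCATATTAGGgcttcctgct
EGR1 CArG box, proximal: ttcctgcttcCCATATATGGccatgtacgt
JUND cAMP response element: gccgcccccaTGACGTCAacccacaaggca
FOS AU-rich nonamer: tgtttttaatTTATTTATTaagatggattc
JUNB ATTTA: atatatttgtgtATTTAacagggaggggaa
JUN G-run match: cGGGGAGGGGACCGGGGAAGAGAGGGccga
JUND G-run match: ggacGGGGGGGCGCGGGCCCCCCGGGaggc

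All 10 genes had a promoter in the RefSeq table of 35116, and both strands were searched. A CArG box stood in 1.29% of all these promoters and among the 10 genes in EGR1. TGACGTCA stood in 1.85% and among the 10 in JUND, and the AP-1 site TGACTCA stood in 4.95% and among the 10 in FOSL2. The EGR site GCGGGGGCG, present in 5.07% of promoters, was not in these windows of any of the 10. A match is a stretch of letters and not a measured binding site. Sequence outside these windows was not searched, so a gene without a match here may hold the element further out.

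In the 3′UTRs, ATTTA occurred 9 times in FOSL2, 5 times in FOS, 3 times each in JUN, FOSB and ATF3, and 2 times in JUNB. JUND, FOSL1 and EGR1 held 1 copy each and IER2 held 0, against a median of 2 over 8860 tested coding genes. The nonamer, which overlaps ATTTA, was in FOS and FOSL2 and in 7.95% of those genes. ATTTA was in 69.3% of the 8860 genes. Of 1140 genes with a 3′UTR of similar length, 10.7% held at least as many ATTTA copies as FOS. By the same measure the share was 26.0% for JUNB, 45.6% for ATF3, 46.4% for JUN, 65.3% for FOSL2 and 71.8% for FOSB. It was 64.5% for FOSL1, 65.5% for JUND and 82.1% for EGR1. The G-run pattern was in the 5′UTRs of JUN, JUND, FOSL2 and IER2 and in 10.5% of the 8860 genes. Among genes with a 5′UTR of similar length, its share was 29.5% for JUN, 7.82% for JUND, 26.4% for FOSL2 and 15.9% for IER2. A run of 4 CGG or GGC units was in 4.75% of the 8860 genes and in none of the 10. JUN, JUNB and JUND each had 1 exon, as did 1.55% of the 8860 genes. JUND had the most GC-rich coding sequence of the 10, at 73.3%, and ATF3 the least, at 51.1%, beside a median of 51.0%.

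In RPKM, which scales reads by gene length and by library total, JUND had the highest RNA level in DMSO cells (54.7 ± 3.76, SD, n = 3). JUNB followed at 27.5 ± 1.11, EGR1 at 23.4 ± 7.35 and IER2 at 18.0 ± 1.10 RPKM. The EGR1 libraries overlapped with both JUNB and IER2, so the order of these neighbours was not resolved. ATF3 lay at 3.78 ± 0.119, JUN at 1.43 ± 0.101 and FOS at 1.16 ± 0.172 RPKM. FOSL2 (0.493 ± 0.0637) and FOSB (0.402 ± 0.05) overlapped, and FOSL1 had the lowest level at 0.0880 ± 0.0214 RPKM. JUND stood at the 90.1 percentile of RNA levels among the 10297 genes tested and JUNB at the 80.6 percentile, whereas JUN stood at the 3.60 percentile and FOS at the 1.55 percentile. KOPT-K1 therefore held its JUN family RNA mainly as JUND and JUNB, and little RNA of the FOS family.

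**Figure D1:**
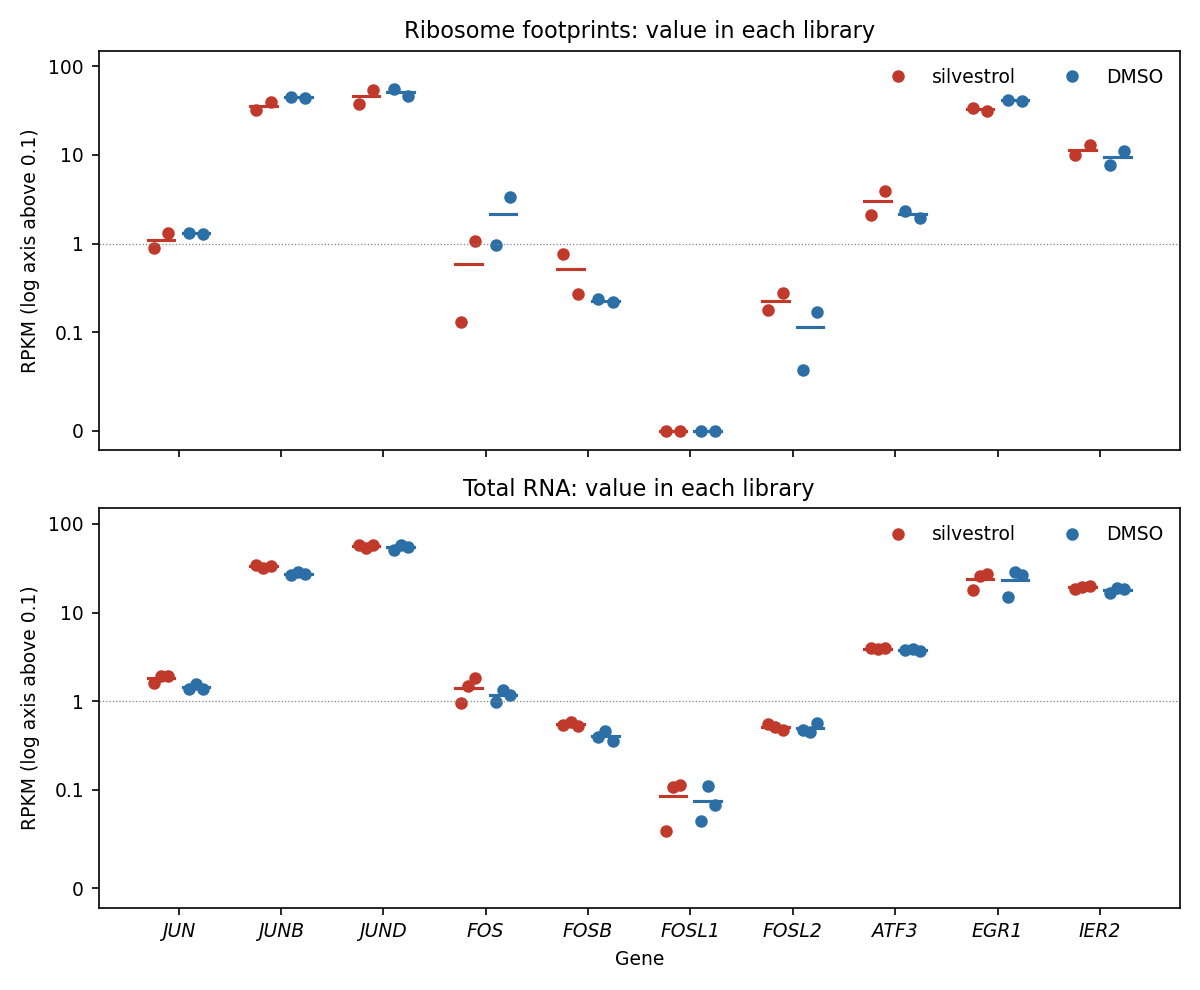
RPKM of the 10 genes in each footprint and RNA library, silvestrol left of DMSO, on a log axis, each point 1 library. JUND, JUNB, EGR1 and IER2 lie above 7 RPKM in all libraries, FOSL1 has no footprints, and FOS spreads most between footprint libraries.

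The reads behind each value differed widely between the genes, although replicate spread did not follow them in every case. Estimated from the steps between low RPKM values, the footprint libraries held 2.03 to 2.38 M reads in silvestrol and 1.66 to 2.27 M in DMSO, and the RNA libraries 126.6 to 178.0 M in silvestrol and 160.5 to 216.7 M in DMSO. JUNB rested on an estimated 133 to 187 footprint reads per library, JUND on 145 to 232, EGR1 on 198 to 300 and IER2 on 54 to 80. ATF3 rested on 13 to 32 footprint reads, JUN on 7 to 11 and FOS on 1 to 18, so their footprint values were coarse. The JUN estimates did not come out as whole reads, so the length used for JUN differed from the authors' and its range is rough. FOSB, FOSL1 and FOSL2 had at most 10, 0 and 4 footprint reads in any library. Genes were tested where the mean reached at least 1 RPKM in both assays, which 7 of the 10 did. FOSB, FOSL1 and FOSL2 did not.

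Of 13 T-cell and T-ALL markers, 12 had a mean RNA level of at least 1 RPKM. Their summed RNA level was 1511 to 1562 RPKM in silvestrol and 1527 to 1579 RPKM in DMSO libraries. The 5 B-cell markers summed to 37.7 to 39.5 RPKM in silvestrol and 39.5 to 41.4 RPKM in DMSO, from CD79A and CD79B, with MS4A1 and PAX5 at 0. None of the myeloid, erythroid or stromal markers reached 1 RPKM.

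Total RNA was compared first, to separate a change of mRNA from a change of ribosome occupancy. JUNB, the JUN protein that often acts against JUN in growth control, rose 1.20-fold. Its RNA level was 34.1, 32.0 and 33.6 RPKM in silvestrol libraries and 26.5, 28.7 and 27.4 RPKM in DMSO libraries. Every silvestrol library lay above every DMSO library. On the scale of log2(RPKM + 0.5), which understates changes of low genes, the RNA change was 0.27 (SE 0.037, 95% interval 0.18 to 0.35), with an adjusted p of 0.0226 by limma with Benjamini-Hochberg adjustment over all 10297 genes. JUNB was the 1 of the 7 tested genes that passed the threshold of 0.05, whereas 0.282% of all tested genes passed it (29 genes), 0.272% with higher RNA. In bulk RNA, more RNA in every cell and more RNA in only some of the cells cannot be told apart. The call was lost when any of 3 libraries was left out (adjusted p 0.0890 without the first and 0.0949 without the third DMSO library, 0.112 without the third silvestrol library), with a log2 change of 0.24 to 0.30 over all 6 such fits. JUNB shares 259 of its 1820 exon bases (14.2%) with HOOK2 on the other strand, and no source used here states whether counting used strand. HOOK2 RNA was 2.37, 1.97 and 2.19 RPKM in silvestrol and 1.76, 1.97 and 1.81 RPKM in DMSO, and its part in the JUNB value was not tested.

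JUN, the founding AP-1 subunit, had a similar RNA difference at a far lower level. Its RNA was 1.62, 1.94 and 1.90 RPKM in silvestrol and 1.37, 1.55 and 1.38 RPKM in DMSO. The groups did not overlap, but the log2 difference of 0.26 (95% interval 0.11 to 0.41) had an adjusted p of 0.180 by limma. JUND, the family member that is often present in resting cells, had 58.5, 53.6 and 58.2 RPKM in silvestrol and 50.8, 58.3 and 54.9 RPKM in DMSO. These groups overlapped, and the interval of the log2 difference ran from −0.06 to 0.17. Among the 7 tested genes, JUN and JUNB had silvestrol RNA values wholly above DMSO values, whereas 8.97% of all tested genes did.

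As shares of summed JUN family RPKM, JUNB made up 36.2% of RNA in silvestrol (35.9% to 36.6% over libraries) and 32.9% in DMSO (32.4% to 33.7%). JUND made up 61.8% in silvestrol (61.2% to 62.1%) and 65.3% in DMSO (64.6% to 65.8%). JUN was 1.99% in silvestrol and 1.71% in DMSO. These shares are a description, with no test, and they do not depend on the scaling of libraries. The footprint shares lay the other way: JUNB was 43.4% in silvestrol (41.7% to 45.1%) and 46.2% in DMSO (44.5% to 47.9%), in ranges that overlapped.

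FOS, which binds DNA as a dimer with a JUN protein, had RNA levels of 0.949, 1.5 and 1.82 RPKM in silvestrol and 0.978, 1.32 and 1.18 RPKM in DMSO. The groups overlapped, and the interval of the log2 difference of 0.19 ran from −0.23 to 0.61. FOSB, a second inducible partner, had 0.539, 0.584 and 0.523 RPKM in silvestrol and 0.394, 0.456 and 0.357 RPKM in DMSO. The FOSB groups did not overlap, yet the gene lay under the filter. Without any filter on low values its RNA difference was 0.22 on the log2 scale with an adjusted p of 0.722 by limma over 34844 genes. FOSL2 had 0.549, 0.514 and 0.474 RPKM in silvestrol and 0.472, 0.443 and 0.565 RPKM in DMSO, and the groups overlapped. FOSL1, typical of adherent and invasive cells, stayed between 0.0577 and 0.114 RPKM in silvestrol and between 0.0686 and 0.111 RPKM in DMSO. FOS thus made up 54.3% of summed FOS family RNA in silvestrol (45.3% to 62.1% over libraries) and 53.9% in DMSO (51.1% to 56.7%). FOSB made up 21.7% in silvestrol (17.8% to 25.7%) and 18.8% in DMSO (16.3% to 20.6%). FOSL2 made up 20.5% in silvestrol (16.2% to 26.2%) and 23.2% in DMSO (19.0% to 25.8%). The ranges of the treatments overlapped for each of these genes.

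ATF3, a stress-induced bZIP factor that represses or activates with its partner, had 3.96, 3.83 and 3.95 RPKM of RNA in silvestrol and 3.73, 3.92 and 3.70 RPKM in DMSO. The groups overlapped in narrow ranges, and the interval of the log2 difference ran from −0.05 to 0.13. IER2, a small immediate early nuclear protein, had 18.5, 19.5 and 19.9 RPKM in silvestrol and 16.8, 18.9 and 18.4 RPKM in DMSO. Its groups overlapped, with a log2 difference of 0.10 (interval −0.0044 to 0.20) and an adjusted p of 0.572 by limma. IER2 shares 946 of 3072 exon bases (30.8%) with the antisense gene AC011446.2, so its level is uncertain.

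EGR1 had RNA levels of 18.1, 25.8 and 27 RPKM in silvestrol and 15.1, 29 and 26.2 RPKM in DMSO. The library numbered 1 was the lowest in both treatments, and the spread within each treatment was larger than the difference between them. The log2 difference was 0.04 with an interval from −0.77 to 0.86, wide enough to hold a change of either direction. Among the 10297 tested genes EGR1 had the sixth largest replicate SD of RNA (0.412 on the log2 scale, median of all genes 0.0467). FOS had an SD of 0.268, rank 53, while ATF3 had 0.033 and JUNB 0.052.

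**Figure D2:**
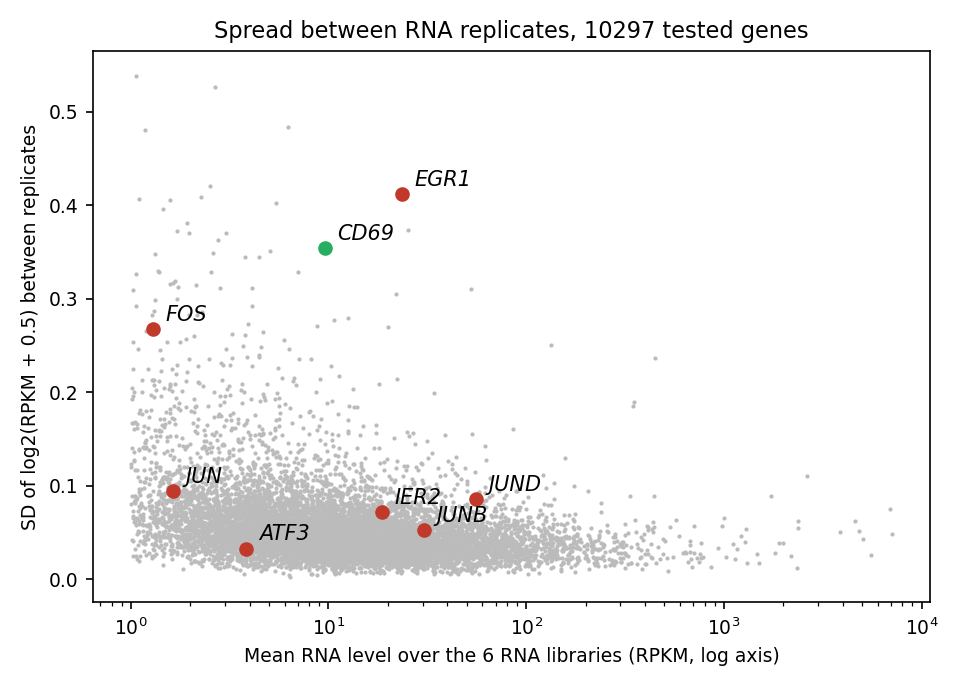
Replicate SD of log2 RNA level against mean RNA level for the tested genes, with the 7 tested members marked. EGR1 (0.412) and FOS (0.268) lie far above the median of 0.0467, and ATF3 and JUNB lie near it.

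The low first library was traced through the other members. Its EGR1 value differed from the mean of the other 2 libraries by −0.53 in silvestrol and −0.85 in DMSO on the log2 scale. For FOS the differences were −0.57 in silvestrol and −0.24 in DMSO. JUN and IER2 also had their lowest value in library 1 of both treatments, so 4 of the 7 tested genes did, whereas 9.36% of all tested genes and 14 of 59 tested genes of the related lists below did. Among the tested genes of the related lists, CD69, an early activation antigen of T cells, differed by −0.62 in silvestrol and −0.60 in DMSO, with RNA at 6.33, 10.1 and 9.91 RPKM in silvestrol and 7.56, 11.9 and 11.6 RPKM in DMSO. Only EGR1, CD69 and the unnamed ENSG00000262372, the last chosen after its values were seen, lay at least 0.5 below in both treatments. With both of these libraries left out, an alternative chosen after seeing the data, the EGR1 RNA difference was −0.062 (interval −0.17 to 0.049). In that fit the FOS RNA difference was 0.30 (interval 0.11 to 0.49) with an adjusted p of 0.283 by limma. That of JUNB was 0.22 with an adjusted p of 0.0797 by limma. What set the first libraries apart was not tested.

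**Figure D3:**
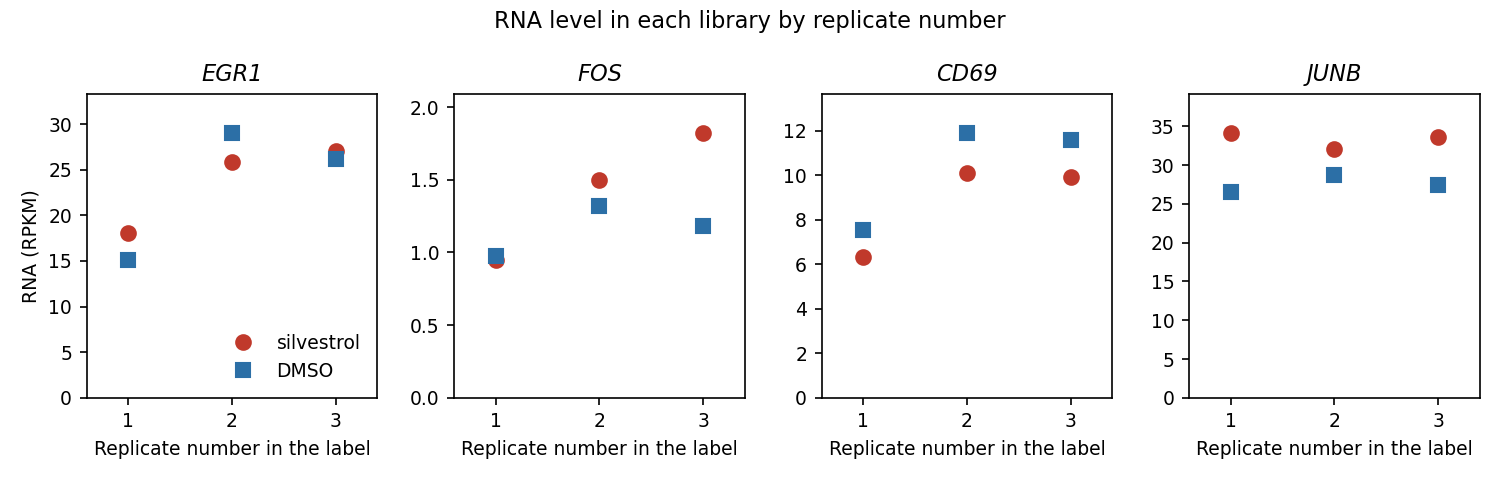
RNA level in RPKM by library number, silvestrol and DMSO, for genes of the set and for CD69, each point 1 library. EGR1 and CD69 are lowest at number 1 in both treatments, and JUNB is not.

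Footprints were compared next. JUNB footprints were 32.0 and 39.8 RPKM in silvestrol and 45.2 and 44.1 RPKM in DMSO. Both silvestrol libraries lay below both DMSO libraries, but they also differed from each other by more than the gap to DMSO. The log2 difference was −0.32 (SE 0.155, interval −0.70 to 0.06), with an adjusted p of 0.738 by limma. Without the first silvestrol library it was −0.16 and without the second −0.47, and leaving out either DMSO library gave values between these. EGR1 footprints were 34.2 and 31.0 RPKM in silvestrol and 42.2 and 40.3 RPKM in DMSO. These groups did not overlap and were tight, with a replicate SD of 0.077 on the log2 scale against a median of 0.230 over all genes, and the log2 difference was −0.34 (interval −0.67 to −0.0040) with an adjusted p of 0.709. Of the 7 tested genes, JUNB and EGR1 lay wholly lower in silvestrol footprints, as did 25.2% of all tested genes. No member passed the threshold in footprints, and 0.0486% of all tested genes did (5 genes, 719 at an unadjusted p under 0.05).

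JUND footprints were 38.0 and 54.4 RPKM in silvestrol and 55.0 and 46.7 RPKM in DMSO, and the groups overlapped (log2 interval −0.65 to 0.34). IER2 footprints were 10 and 12.8 RPKM in silvestrol and 7.76 and 11 RPKM in DMSO, which also overlapped (interval −0.34 to 0.89). ATF3 had 2.10 and 3.93 RPKM in silvestrol and 2.31 and 1.95 RPKM in DMSO, with an interval from −0.54 to 1.28. For these 3 genes a footprint change of the size seen for JUNB, in either direction, lay within the interval and could not be told from none with these libraries.

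JUN footprints were 0.887 and 1.33 RPKM in silvestrol and 1.33 and 1.27 RPKM in DMSO. Their log2 interval ran from −1.35 to 1.00. FOS footprints were 0.13 and 1.06 RPKM in silvestrol and 0.954 and 3.35 RPKM in DMSO. The FOS groups overlapped, the lowest library held an estimated 1 read, and the difference of −1.25 had an interval from −3.11 to 0.60. It was −0.55 without the second DMSO library, −0.60 without the first silvestrol library, −1.96 without the first DMSO library and −1.91 without the second silvestrol library. FOSB had 0.758 and 0.266 RPKM in silvestrol and 0.238 and 0.217 RPKM in DMSO, FOSL2 0.176 and 0.275 RPKM in silvestrol and 0.0616 and 0.168 RPKM in DMSO, and FOSL1 was at 0 in all 4 libraries. At 1 to 10 reads per library, the FOSB and FOSL2 footprints could not be compared between treatments.

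**Figure D4:**
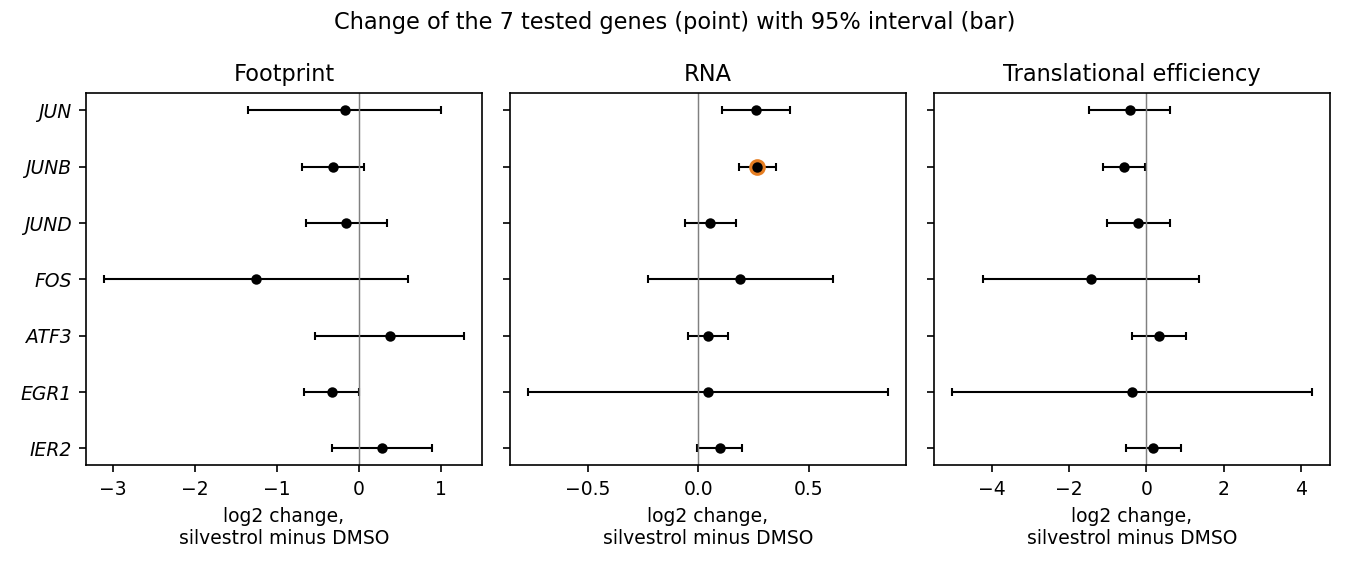
Log2 difference, silvestrol minus DMSO, of RNA, footprints and translational efficiency for the 7 tested genes, each with its 95% interval from limma. The orange ring marks the call of JUNB in RNA (0.27), and all footprint and translational efficiency estimates are without a call.

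Translational efficiency, the footprint change less the RNA change, was tested over all 10 libraries as an assay by treatment interaction, with a weight per assay. JUNB had a difference of −0.59 (SE 0.248, interval −1.12 to −0.05) with an adjusted p of 0.628 by limma. It was made of an RNA difference of 0.27 and a footprint difference of −0.32. When 1 spread was used for both assays, the JUNB difference passed with an adjusted p of 0.0351, in a fit that called 5.29% of all genes (545) rather than 0.107% (11). JUN had −0.44 (interval −1.49 to 0.62), made of 0.26 in RNA and −0.18 in footprints. JUND had −0.21 (interval −1.03 to 0.61), FOS −1.45 (−4.24 to 1.35), ATF3 0.33 (−0.38 to 1.04) and IER2 0.18 (−0.53 to 0.89). None of the 7 passed, and 760 of all genes had an unadjusted p under 0.05, JUNB among them.

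The EGR1 difference of −0.38 was made of −0.34 in footprints and 0.04 in RNA. The shared weight treats footprints as the noisier assay, but for EGR1 the RNA libraries spread more than the footprints, and its SE came to 1.94. A separate spread for each assay was added after seeing the data. It was not a limma fit of its own. The RNA estimate of limma was subtracted from the footprint estimate, and their squared SEs were added. The EGR1 SE was then 0.339, with an interval from −1.19 to 0.44. JUNB had an SE of 0.160 by the same calculation. Neither gene passed after Benjamini-Hochberg adjustment of p-values from the difference over this SE (adjusted p 0.818 for EGR1, 0.549 for JUNB).

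JUNB was the 1 gene of the 7 with RNA wholly higher and footprints wholly lower in silvestrol, a pattern held by 2.48% of all tested genes (255). The 7 genes had a median RNA difference of 0.10 on the log2 scale, with 7 of 7 above 0, while all genes had a median of 0.0028 and 52.5% above 0. The RNA intervals of JUND, FOS, ATF3, EGR1 and IER2 included 0, and the EGR1 sign changed in some fits that left out a library. The signs are therefore not a shared rise of the 7 genes. Their median footprint difference was −0.18 with 5 of 7 below 0, while all genes had −0.07 and 59.5% below 0. Their median translational efficiency difference was −0.38 with 5 of 7 below 0, while all genes had −0.08 and 59.9% below 0. ATF3 and IER2 lay above 0 in all 3 comparisons.

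**Figure D5:**
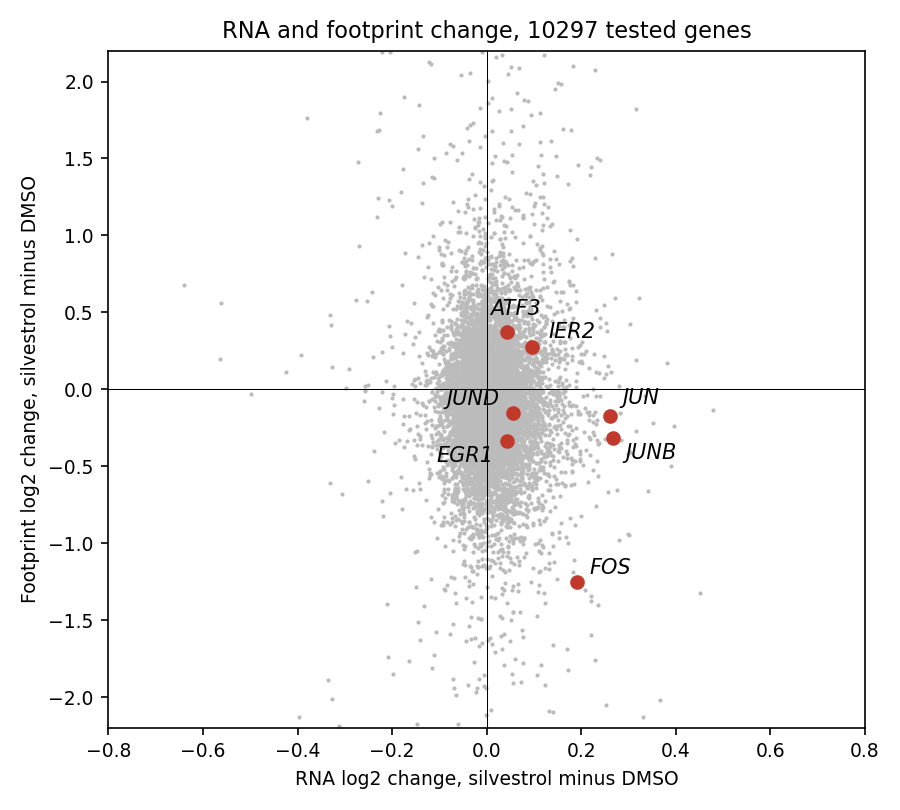
Footprint against RNA log2 difference, silvestrol minus DMSO, of the tested genes with the 7 members marked, 87 genes lying outside the axes. JUNB (0.27 and −0.32) and JUN lie to the right of and below the centre, while ATF3 and IER2 lie above it.

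In DMSO cells the members also differed in footprints per RNA. Footprints fall on coding sequence whereas RNA reads also cover UTRs, so this ratio depends on the coding share of a gene as well. The ratio of mean footprint to mean RNA level, each with 0.5 RPKM added, was 1.74 for EGR1, 1.61 for JUNB and 1.60 for FOS, at the 93.5, 92.2 and 92.0 percentiles of all tested genes. JUN and JUND each had 0.931, ATF3 0.614 and IER2 0.533, while the median of all genes was 0.757. Each DMSO footprint library alone was also set against the mean of the 3 DMSO RNA libraries. EGR1 then had 1.78 and 1.70 and JUNB 1.63 and 1.59, at the 91.3 to 93.0 percentiles. The RNA side was not varied. EGR1 RNA ran from 15.1 to 29 RPKM over those RNA libraries, so its ratio was less settled than these values show. The FOS ratio was 0.876 with the first footprint library (60.7 percentile) and 2.32 with the second (96.3 percentile), so its place was not settled. JUNB and JUND, both with a single exon and near-equal coding length (1044 bases each), stood at different ratios.

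The genes around AP-1 and EGR1 were read from lists of dimer partners, EGR cofactors, upstream kinases, feedback phosphatases, other immediate early genes and T-cell targets. Of 15 other AP-1 and bZIP partners, 9 were tested and 0 passed in any comparison, with a median RNA difference of 0.03. BATF, a JUN partner in lymphocytes, had 24.5 and 23.1 RPKM of footprints in silvestrol and 18.0 and 11.7 RPKM in DMSO, with an RNA mean of 35.7 RPKM in silvestrol and 34.9 RPKM in DMSO. Its footprint difference of 0.69 (interval 0.12 to 1.26) lay opposite to that of JUNB, with an adjusted p of 0.668 by limma. MAFK, ATF2 and NFE2L2 had footprint differences of −0.01, 0.07 and 0.29, none of which passed.

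Of 5 other EGR genes and their NAB corepressors, 2 were tested and 0 passed. NAB2, an EGR1 target that represses EGR1 in turn, had RNA at 11.1, 10.1 and 10.7 RPKM in silvestrol and 9.12, 9.21 and 9.16 RPKM in DMSO, without overlap, and a log2 difference of 0.20 with an adjusted p of 0.0763 by limma. NAB1 had an RNA difference of −0.0016. Of 19 genes of serum response and MAPK input, 18 were tested and 0 passed in any comparison. SRF, which binds CArG boxes, had an RNA difference of −0.03 (interval −0.09 to 0.03), and MAP2K1, a kinase upstream of ERK, had 0.0017 (−0.07 to 0.07). MAP2K2 and RPS6KA1 each had −0.03.

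Of 12 MAPK phosphatases and feedback inhibitors, 6 were tested and 0 passed. DUSP1, itself an immediate early gene, had footprints of 7.08 and 4.38 RPKM in silvestrol and 8.52 and 10.1 RPKM in DMSO, with a translational efficiency difference of −0.80 (interval −1.52 to −0.08, adjusted p 0.607 by limma). DUSP2, DUSP6 and DUSP7 had −0.11, 0.01 and 0.03 in RNA.

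Of 34 other immediate early genes, 20 were tested and 1 passed, MYC with higher RNA. MYC RNA was 112, 98.0 and 98.7 RPKM in silvestrol and 82.3, 77.7 and 73.8 RPKM in DMSO. It rose, with a log2 change of 0.40 (SE 0.058) and an adjusted p of 0.0451 by limma. The call was lost when any DMSO library or the second or the third silvestrol library was left out (adjusted p 0.0641 to 0.196 by limma, log2 change 0.36 to 0.44). Without the first silvestrol library the log2 change was 0.34, with an adjusted p of 0.0239. MYC footprints were 113 and 123 RPKM in silvestrol and 136 and 142 RPKM in DMSO, a difference of −0.24 with an adjusted p of 0.738. MYC thus had RNA wholly higher and footprints wholly lower, as JUNB did. IER5, a relative of IER2, had an RNA difference of 0.15 (adjusted p 0.0817), while MCL1, ZFP36L2 and BTG1 had −0.01, 0.02 and 0.06. Of 12 AP-1 regulated T-cell activation genes, 10 were found by symbol (CCL3 and CCL4 were not), 4 were tested and 0 passed. TNF footprints were 18.6 and 14.7 RPKM in silvestrol and 11.6 and 10.8 RPKM in DMSO, a difference of 0.54 with an adjusted p of 0.675. CD40LG, CD69 and IL4 had footprint differences of 0.06, −0.12 and −0.34, with intervals across 0.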

How the data were processed

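Footprints and total RNA of KOPT-K1 cells were compared between silvestrol and DMSO, with groups and replicate numbers from the sample titles. The authors deposited RPKM values per Ensembl gene ID, 1 table per library. The submitters' processing notes name STAR and hg19, without role. The sources used here give neither the counting tool and annotation nor the gene lengths and strand setting. A gene name table matched 49395 of 55889 IDs. Depth was estimated: low values were whole multiples of a step within 0.05 of a read for 90.6% to 93.0% of values. The step is inversely proportional to the library total and to the gene length. Each total was therefore found from the steps and the GENCODE 29 exon lengths. These lengths may differ from the authors', so no count model was run.

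Values were taken as log2(RPKM + 0.5). Genes with a mean of at least 1 RPKM in RNA and in footprints were tested (10297) with R 4.3.3 and limma 3.58.1 (lmFit, eBayes with trend and robust), two-sided, with Benjamini-Hochberg adjustment and calls at 0.05. RNA used 6 libraries and footprints 4. Translational efficiency was the interaction over 10 libraries, with arrayWeights per assay, since footprints vary more. The fits were tested on simulated data. RPKM is relative to each library's total, so a change shared by all genes is not seen.

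The members and lists were chosen with earlier results of these data known. Genes named beyond the members were list genes that were called, or up to 4 others per list with the highest RNA level, and for each tested member the gene with the most similar pattern. HOOK2 and AC011446.2 were named because they overlap a member, and ENSG00000262372 after its values were seen. Alternatives covered pseudocount, filter, scaling, variance model, replicate block and leaving out each library. GENCODE and RefSeq, on GRCh38, gave only sequences and lengths.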

Additional observations from a re-analysis of the deposited data

How the results depend on the processing

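The count of RNA calls was 29. It was 0 without a filter (1885 genes at an unadjusted p under 0.05), 4 with eBayes without trend and robust, 5 with the filter on RNA only, 48 with all 10 libraries in 1 fit, and 14 without both RNA libraries numbered 1, which was chosen after seeing the data. Leaving out 1 library gave 0 to 35 calls: 0 without the first or the third DMSO library (743 and 846 genes at an unadjusted p under 0.05), 5 without the second and 1 without the third silvestrol library. The count of footprint calls was 5. It was 2 with a pseudocount of 0.1, 2 with a filter at 5 RPKM, 280 without a filter, 8 with quantile normalization, 1 with eBayes without trend and robust and 9 with all 10 libraries, and 0 without any 1 library (510 to 772 genes at an unadjusted p under 0.05). The count of translational efficiency calls was 11. It was 271 without a filter, 6 with eBayes without trend and robust and 545 with 1 spread. Leaving out 1 library gave 8 to 44, with 21 without the first DMSO, 44 without the first silvestrol and 31 without the second silvestrol footprint library. Quantile normalization moved the share of higher calls to 62.5% in footprints (40% as deposited) and 30.8% in translational efficiency (18.2%). With other settings the share of higher footprint calls ran from 22.2% to 100% (the 100% shares rest on 1 or 2 calls), and separate spreads gave 50% in translational efficiency.

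Among the members, JUNB RNA missed the threshold without a filter (adjusted p 0.386 by limma), with the filter on RNA only (0.0594), with eBayes without trend and robust (0.07) and without the libraries numbered 1 (0.0797), and its log2 change stayed between 0.22 and 0.30. MYC RNA missed it without a filter (0.425), with the filter on RNA only (0.0980), with median scaling (0.0811), quantile normalization (0.0511) and eBayes without trend and robust (0.0720). Without the libraries numbered 1, the RNA difference was −0.018 for JUND and −0.062 for EGR1. Leaving out 1 library moved EGR1 RNA from −0.24 to 0.22, and the footprint difference from −0.38 to 0.024 for JUN, −0.41 to 0.10 for JUND and −0.013 to 0.76 for ATF3, −0.47 to −0.16 for JUNB, −1.96 to −0.55 for FOS and 0.039 to 0.52 for IER2. It moved translational efficiency from −0.057 to 0.42 for IER2, −0.47 to 0.046 for JUND and −0.057 to 0.71 for ATF3. A lone footprint library was assumed to vary like the others, and a filter at 5 RPKM left JUN, FOS and ATF3 without values. The cause of these moves was not tested.

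Across all genes, replicate numbers showed no pairing of the RNA samples. Deviations of same-numbered RNA libraries correlated at 0.042, −0.327 and 0.150 across genes, and those of other pairs at −0.319 to 0.303. The footprint check gave only 1 value, −0.033, since each treatment had 2 footprint libraries. Whether the numbers pair the samples for single members was not tested. A replicate block gave 57 RNA calls, JUNB among them (adjusted p 0.0133), 1 footprint call and 14 translational efficiency calls. It narrowed the interval of the RNA difference to −0.17 to 0.26 for EGR1 and −0.0039 to 0.39 for FOS, the members low at number 1 in both treatments by the most, and called neither. With the block the FOS translational efficiency interval was −2.79 to −0.10, with an adjusted p of 0.645 by limma. Without both RNA libraries numbered 1 it was −3.04 to −0.07, with an adjusted p of 0.624 by limma. In every other fit that held FOS this interval included 0, and no fit called it.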

Other observations

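For each tested member, the gene with the most similar pattern was sought among 5961 genes with at least 5 RPKM on average in each assay, by Pearson's r over the 10 libraries after centring within each assay. Each r is the highest of 5961, which alone makes it large. The values describe these libraries only, and whether the replicates were separate cultures is not stated. The r was 0.994 between ATF3 and SDF2L1, 0.986 between JUND and C4orf48, 0.964 between FOS and MTHFD1L and 0.955 between JUNB and ADNP2. It was 0.946 between IER2 and GIMAP8, 0.935 between JUN and ARF6 and 0.852 between EGR1 and ARRDC3.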
